A study of Mus musculus with 49 samples.

Results

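Matrix genes of fibroblasts other than collagens were followed through factor-infected mouse fibroblasts and lines of pluripotent cells. The genes were chosen by name, as every named probe whose current mouse symbol is Eln, Fbln5, Mgp, Postn, Ptn, Fn1, Sparc, Thbs2, Aspn or Dpt. They are 10 of 13852 named genes and hold 12 of 15539 named probes, since Fbln5 and Thbs2 have 2 probes each. The brighter probe stands for the gene, and the other is given at the end. Expression was measured on 49 one-colour arrays, as linear intensity values without unit, in 23 groups of 2 arrays each, or 3 for OKM+EV, GATA4+SKM and line B6. Whether the arrays of a group come from separate cultures is not stated, so each p-value rests on spread among arrays alone, and precision is limited by how few arrays there are.

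Lines G6Gm, G3 and Dlx3RNAi are induced pluripotent stem cells (iPSC) and carry the strain label OGXICR, as do the fibroblasts, and only Dlx3RNAi has a treatment label, Dlx3 RNAi. The labels name no factors for G6Gm and G3. Embryonic stem cell (ESC) line R1 is of strain 129 and line B6 of strain C57BL\6. Each line is a single line, and all 5 were grown on a feeder layer of mitomycin C-treated mouse embryonic fibroblasts. Whether the feeders were removed before RNA was extracted is not stated. The fibroblasts (MEF) came from skin of limbs and tails of female embryos at E13.5, counted in embryonic days, with the epidermis removed. Infected groups received lentiviruses whose inserts doxycycline switches on. The letters SKM mean SOX2, KLF4 and MYC. SKM was combined with OCT4, GATA6, SOX7, PAX1, GATA4, MIXL1, CEBPa, HNF4a or GRB2, against SKM with an empty vector (SKM+EV) and the vector alone (MEF1 EV). The letters OKM mean OCT4, KLF4 and MYC. OKM+EV was set against the vector alone (MEF2 EV), and OKM with SOX1, SOX3 or GMNN against OKM+SOX2. The uninfected MEF were the reference of the lines.

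The arrays fall into 5 normalization sets, recognised by a shared pattern of missing values, and groups were compared only within a set. The lines G6Gm, G3, Dlx3RNAi and R1 share a set with the uninfected MEF and all 10 genes. All SKM groups share one with MEF1 EV, with 9 genes and no value for Ptn. OKM+EV and MEF2 EV form a set with all 10, the 4 other OKM groups a set with 9 and no value for Fn1, and B6 a set of its own with 8 and no value for Aspn and Dpt. Differences are given as log2 of intensity plus 32, and a gene was called where limma's Benjamini-Hochberg adjusted p over all genes of the set was under 0.05.

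The extracellular matrix that fibroblasts lay down holds fibres, proteins that bind fibres, and proteins that act on cells without building structure. Elastin (Eln) is the core of elastic fibres, and fibulin-5 (Fbln5) binds it to microfibrils during fibre assembly. Matrix Gla protein (Mgp) is a vitamin K-dependent inhibitor of calcification. Fibronectin (Fn1) is an adhesive glycoprotein bound by integrins. Periostin (Postn), SPARC (Sparc, also called osteonectin) and thrombospondin-2 (Thbs2) are matricellular proteins, which modulate how cells meet the matrix. Pleiotrophin (Ptn) is a heparin-binding growth factor stored in the matrix, asporin (Aspn) a small leucine-rich proteoglycan, and dermatopontin (Dpt) a small dermal protein that binds decorin and collagen fibrils. Reprogramming of fibroblasts involves a mesenchymal-to-epithelial transition, in which mesenchymal programmes are shut down and keratins and other epithelial genes appear.

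Promoter sequences are shown for 4 genes on which the results turn: Ptn and Fbln5, which were far lower in the pluripotent lines, and Postn and Sparc, whose means in the 4 lines set against uninfected MEF were at least 48.5 percent of the MEF mean. They are from RefSeq on GRCm38.p6, which matched 7 of the 10 genes, and each covers 300 bases from 250 before the annotated start to 50 after it, 5′ to 3′ on the gene's strand. Postn and Fbln5 each have a second annotated start, not shown. Capitals mark matches, on either strand, to 6 motifs. The TATA box was searched as TATAAA, and the GC box as the letters GGGCGG. The AP-1 site was searched for as the letters TGACTCA, and the TEAD site as GGAATG. The GATA site was searched as GATAA, and the CCAAT box by its name.
Ptn (chr6:36810130-36810429, minus strand): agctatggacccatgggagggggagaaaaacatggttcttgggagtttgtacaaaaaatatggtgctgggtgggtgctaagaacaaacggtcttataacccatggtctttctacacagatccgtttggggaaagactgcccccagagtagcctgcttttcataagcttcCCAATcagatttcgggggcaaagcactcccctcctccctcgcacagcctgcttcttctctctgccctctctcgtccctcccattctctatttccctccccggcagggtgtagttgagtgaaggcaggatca
Fbln5 (chr12:101819070-101819369, minus strand): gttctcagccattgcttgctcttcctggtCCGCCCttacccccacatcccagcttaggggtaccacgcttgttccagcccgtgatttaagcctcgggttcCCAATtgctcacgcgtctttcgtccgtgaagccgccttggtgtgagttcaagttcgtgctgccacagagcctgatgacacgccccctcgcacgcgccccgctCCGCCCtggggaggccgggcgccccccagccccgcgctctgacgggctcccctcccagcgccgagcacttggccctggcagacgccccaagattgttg
Postn (chr3:54360857-54361156, plus strand): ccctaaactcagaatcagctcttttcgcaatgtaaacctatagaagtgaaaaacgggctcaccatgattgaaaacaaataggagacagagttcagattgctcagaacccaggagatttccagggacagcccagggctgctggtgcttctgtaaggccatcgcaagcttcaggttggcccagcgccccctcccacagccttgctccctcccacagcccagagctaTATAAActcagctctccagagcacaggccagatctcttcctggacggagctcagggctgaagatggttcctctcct
Sparc (chr11:55420031-55420330, minus strand): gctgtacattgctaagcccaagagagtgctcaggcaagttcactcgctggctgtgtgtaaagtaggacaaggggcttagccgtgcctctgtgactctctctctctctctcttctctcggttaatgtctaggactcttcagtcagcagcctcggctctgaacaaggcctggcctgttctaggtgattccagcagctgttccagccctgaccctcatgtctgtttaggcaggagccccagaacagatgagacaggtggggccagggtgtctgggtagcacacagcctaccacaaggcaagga
The Postn window holds TATAAA from position -26, a motif present in 13.6 percent of 32851 mouse promoter windows of the same length. The Ptn window holds CCAAT from position -81, and 37.4 percent of all windows hold that motif. The Fbln5 window has 24 CG dinucleotides, against a median of 7 over all windows, with CCGCCC, the reverse complement of the GC box, from positions -221 and -48 and CCAAT from -150. A GC box is present in 35.7 percent of windows. None of the 6 motifs occurs in the Sparc window, and none of AP-1 (5.2 percent of all windows), GATA (25.4 percent) and TEAD (14.7 percent) in any of the 4. These matches describe letters and are no sign of binding.

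Some of these matrix transcripts were far lower in the pluripotent lines than in uninfected MEF, and others were not. Elastin, fibulin-5, Mgp and Ptn were far lower in each line than in uninfected MEF, Postn, Fn1 and Sparc had line means of at least 48.5 percent of the MEF mean, and Thbs2, Aspn and Dpt depended on the line. In the mean of the 4 lines against uninfected MEF, 7 of the 10 genes were lower, 1 was higher and 2 were not called. Of 11989 genes tested, 57.8 percent were called in this comparison, 29.1 percent lower and 28.7 percent higher. The median log2 difference was -1.41 over the 10 genes and 0.04 over all genes. In these bulk samples fewer fibroblasts and less RNA per cell cannot be told apart.

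Both elastic fibre genes were far lower in each line. Eln had intensities of 85.3 and 197 in G6Gm, 113 and 162 in G3, 114 and 171 in Dlx3RNAi and 106 and 86.7 in R1, against 4774 and 6104 in uninfected MEF. All 8 line arrays lay far below both MEF arrays, and R1 lay below both arrays of G3 and of Dlx3RNAi and overlapped only G6Gm. The line means were between 1.77 and 2.63 percent of the MEF mean. Fbln5 was at 1319.8 and 1211 in G6Gm, 221 and 229 in G3, 1444 and 1243 in Dlx3RNAi and 529 and 543 in R1, against 11009 and 10744 in uninfected MEF. Here G3 was lowest, R1 intermediate, and G6Gm and Dlx3RNAi overlapped at the top of the lines. The log2 differences of Fbln5 from uninfected MEF were -3.07 (SE 0.19, adjusted p = 5.41e-14) in G6Gm, -5.41 (adjusted p = 4.08e-20) in G3, -2.99 (adjusted p = 9.29e-14) in Dlx3RNAi and -4.26 (adjusted p = 1.18e-17) in R1. These 4 comparisons share the 2 MEF arrays, and 40.2 percent of all genes were called in G6Gm, 52.2 in G3, 48.3 in Dlx3RNAi and 53.2 in R1.

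Mgp, the calcification inhibitor, had intensities of 235 and 318 in G6Gm, 222 and 213 in G3, 339 and 456 in Dlx3RNAi and 223 and 286 in R1, against 9267 and 8631 in uninfected MEF. The line means were 2.43 to 4.44 percent of the MEF mean. The growth factor Ptn stood at 121 and 145 in G6Gm, 21.6 and 32.1 in G3, 244 and 182 in Dlx3RNAi and 94.5 and 67.2 in R1, against 13062 and 11436 in uninfected MEF. Ptn in the lines was thus 0.219 percent (G3) to 1.74 percent (Dlx3RNAi) of the fibroblast mean, and its G3 arrays lie near the offset of 32, 1 below and 1 just above it, where log2 differences are compressed.

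**Figure D1:**
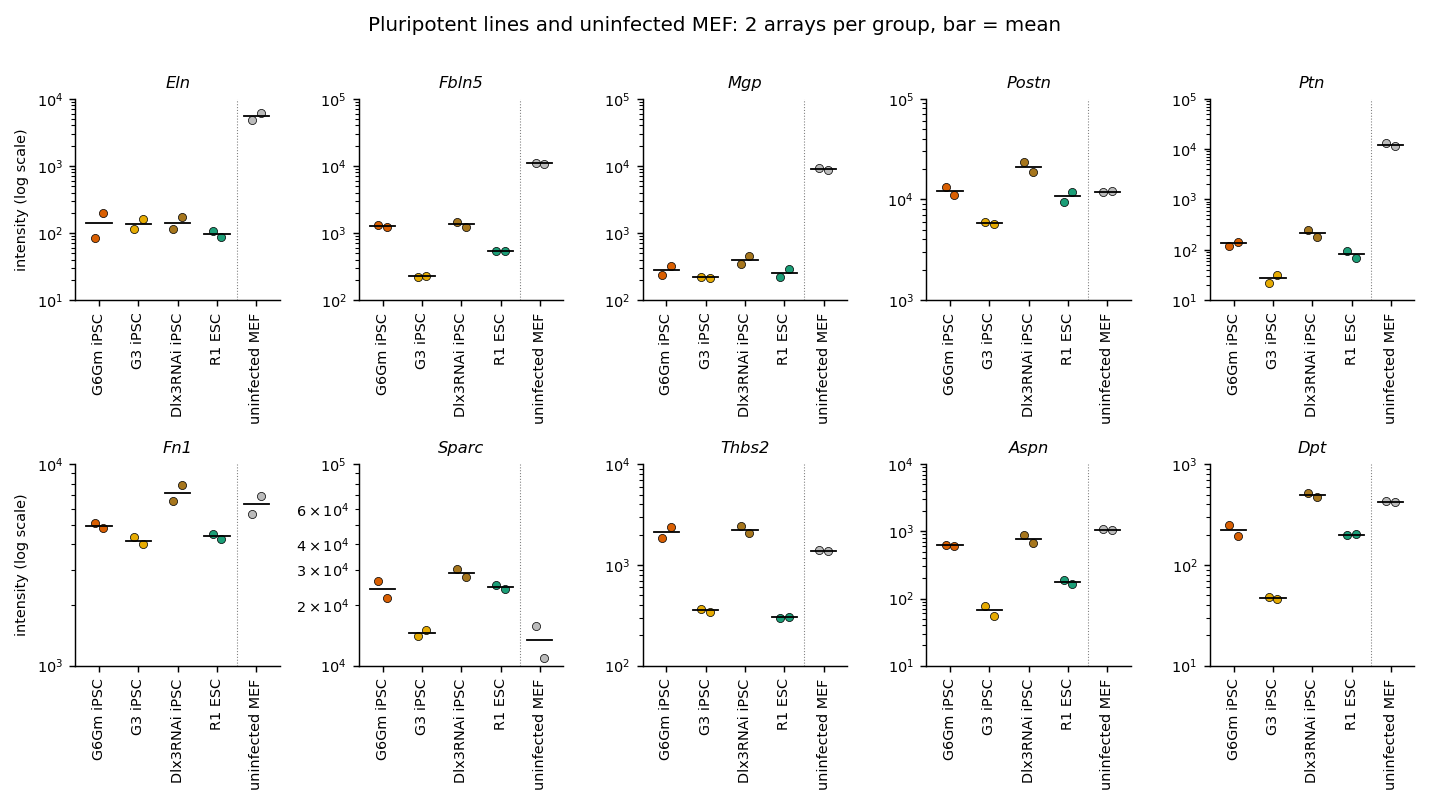
Intensity on each array (points, log scale, 2 arrays per group) and group mean (bar) for the 10 genes in the 4 pluripotent lines and, right of the dotted line, uninfected MEF. Eln, Fbln5, Mgp and Ptn lie well below uninfected MEF in each line, Sparc lies at or above it and Postn on both sides of it, and Fbln5, Thbs2, Aspn and Dpt differ between lines.

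The adhesive and matricellular genes behaved differently. Fn1 had intensities of 5089 and 4827 in G6Gm, 4362 and 4002 in G3, 6546 and 7869 in Dlx3RNAi and 4506 and 4275 in R1, against 5693 and 6975 in uninfected MEF. Its difference from uninfected MEF was not called in any single line, with log2 differences from -0.59 in G3 to 0.19 in Dlx3RNAi and adjusted p from 0.117 to 0.647. Postn was at 13136 and 11181 in G6Gm, 5945 and 5648 in G3, 23487 and 18860.3 in Dlx3RNAi and 9493 and 11886 in R1, against 11748 and 12169 in uninfected MEF. The lines straddled the fibroblast level: Postn was higher in Dlx3RNAi (log2 difference 0.81, SE 0.24, adjusted p = 0.00601), lower in G3 (log2 difference -1.04, SE 0.24, adjusted p = 0.000525), and not called in G6Gm (0.02, adjusted p = 0.957) or R1 (-0.17, adjusted p = 0.57). The Dlx3RNAi call was lost without its replicate 1 (adjusted p = 0.0754).

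Sparc had intensities of 26283 and 21723 in G6Gm, 13982 and 15041 in G3, 30270.5 and 27639 in Dlx3RNAi and 25227 and 24059 in R1, against 15723 and 10953 in uninfected MEF. It was higher in G6Gm (log2 difference 0.86, SE 0.31, adjusted p = 0.0259), Dlx3RNAi (log2 difference 1.14, SE 0.31, adjusted p = 0.00318) and R1 (log2 difference 0.91, SE 0.31, adjusted p = 0.0144), and the G3 arrays overlapped the MEF arrays. These 3 calls and that for the mean of the 4 lines were lost without uninfected MEF replicate 2, the lower MEF array (adjusted p = 0.224 for the mean), and those for G6Gm and R1 also without replicate 1 of the line. Thbs2 was at 1849.8 and 2409 in G6Gm, 368 and 344 in G3, 2413 and 2067 in Dlx3RNAi and 300.05 and 303 in R1, against 1405 and 1369 in uninfected MEF. G3 and R1 lay below both MEF arrays, G6Gm and Dlx3RNAi above both, and the mean over lines hides this split. Its call for the mean of the 4 lines was lost without uninfected MEF replicate 1 and with the mean of both probes (adjusted p up to 0.374).

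Aspn and Dpt, the collagen-binding pair, were lowest in G3. Aspn stood at 631 and 604 in G6Gm, 78.0 and 54.6 in G3, 895 and 660.4 in Dlx3RNAi and 187 and 167 in R1, against 1077 and 1044 in uninfected MEF. Dpt stood at 249 and 195 in G6Gm, 47.7 and 46.0 in G3, 518 and 472 in Dlx3RNAi and 198 and 202 in R1, against 431 and 420.0 in uninfected MEF. Dlx3RNAi arrays lay above both MEF arrays for Dpt, a difference that was not called (log2 difference 0.20, SE 0.22, adjusted p = 0.468), and below both for Aspn, also not called (log2 difference -0.45, SE 0.21, adjusted p = 0.0828).

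Set against each other, the 4 lines differed in 7 of the 10 genes by limma's F-test, where 32.3 percent of all genes differed. The adjusted p was 5.7e-12 for Aspn, 2.47e-11 for Thbs2, 2.66e-11 for Fbln5, 1.32e-09 for Dpt, 2.1e-06 for Ptn, 4.93e-06 for Postn and 0.0138 for Mgp. Eln (0.625), Fn1 (0.173) and Sparc (0.0564) did not pass. Dlx3RNAi exceeded G3 in 8 genes, with 11.8 percent of all genes called higher. The log2 difference was 3.04 (SE 0.21, adjusted p = 1.52e-11) for Aspn, 2.74 (SE 0.22, adjusted p = 2.04e-10) for Dpt, 2.55 (SE 0.25, adjusted p = 4.62e-09) for Thbs2 and 2.42 (SE 0.19, adjusted p = 7.29e-11) for Fbln5. It was 2.05 (SE 0.21, adjusted p = 5.03e-07) for Ptn, 1.85 (SE 0.24, adjusted p = 6.15e-07) for Postn, 0.99 (SE 0.31, adjusted p = 0.0167) for Sparc and 0.77 (SE 0.19, adjusted p = 0.00333) for Mgp, and Eln (0.04, SE 0.30, adjusted p = 0.942) and Fn1 (0.78, SE 0.31, adjusted p = 0.0696) were not called. The Sparc call was lost without any 1 of the 4 arrays and the Mgp call without Dlx3RNAi iPSC replicate 2 (adjusted p up to 0.0975 and 0.101).

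G6Gm exceeded G3 in 6 genes, where 10.7 percent of all genes were called higher: Aspn (2.73), Thbs2 (2.47), Fbln5 (2.33), Dpt (1.68), Ptn (1.49) and Postn (1.06), each on the log2 scale and with adjusted p of 0.00152 or less. Eln, Mgp, Fn1 and Sparc were not called, with log2 differences from -0.04 (Eln) to 0.72 (Sparc). G6Gm and Dlx3RNAi were closer, with Dpt the 1 gene called (log2 difference 1.06, SE 0.22, adjusted p = 0.0063; 1.02 percent of all genes higher). That call was lost without G6Gm iPSC replicate 2 or either Dlx3RNAi array (adjusted p up to 0.146). Eln, Fbln5, Mgp, Ptn, Fn1, Postn, Sparc, Thbs2 and Aspn were not called, with log2 differences from 0.07 (Eln) to 0.79 (Postn). A fit of this set alone called 3 genes. For such fits, here and in later comparisons, the share of all genes called was not counted.

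Against the ESC line R1, the iPSC lines went in different directions. Dlx3RNAi was higher in 7 genes (9.59 percent of all genes), with Thbs2 at 2.76 (SE 0.25, adjusted p = 3.35e-09), Aspn at 1.94 (SE 0.21, adjusted p = 1.38e-07) and Mgp, the smallest, at 0.58 (SE 0.19, adjusted p = 0.033). The others were Fbln5 (1.27), Dpt (1.18), Ptn (1.12) and Postn (0.98). Eln, Fn1 and Sparc were not called, with log2 differences from 0.23 (Sparc) to 0.71 (Fn1). The Mgp and Postn calls were lost without R1 ESC replicate 1 or a Dlx3RNAi array, replicate 2 for Mgp and 1 for Postn (adjusted p up to 0.369 and 0.0708). G6Gm was higher in 3 genes (9.83 percent): Thbs2 (2.68), Aspn (1.64) and Fbln5 (1.19). Eln, Mgp, Ptn, Fn1, Postn, Sparc and Dpt were not called, with log2 differences from -0.04 (Sparc) to 0.56 (Ptn). G3 was lower in 5 (4.05 percent): Dpt (-1.56), Fbln5 (-1.14), Aspn (-1.09), Ptn (-0.93) and Postn (-0.87). Eln, Mgp, Fn1, Sparc and Thbs2 were not called, with log2 differences from -0.76 (Sparc) to 0.39 (Eln). The count for G3 was 3 to 4 when 1 array was left out, and Postn was lost without either G3 array or R1 ESC replicate 2, and Ptn without G3 iPSC replicate 1 or R1 ESC replicate 1. In the mean of the 3 iPSC lines, only Thbs2 and Aspn were called, both higher (7.19 percent of all genes higher). Aspn was at 0.83 (SE 0.17, adjusted p = 0.0013). The Thbs2 call rests on the brighter probe (1.89), since the other probe of Thbs2 was not called (0.62, adjusted p = 0.107). Eln, Fbln5, Mgp, Ptn, Fn1, Postn, Sparc and Dpt were not called, with log2 differences from -0.19 (Sparc) to 0.44 (Fbln5).

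Markers of fibroblasts and of other cell types also differed between lines. The summed intensity of 8 fibroblast markers with a value, of 10 listed, was 43751 to 46963 in G6Gm, 33827 to 33831 in G3, 48348 to 52647 in Dlx3RNAi and 39099 to 39789.5 in R1, against 47887 to 51194 in uninfected MEF. Vim makes up most of that sum. Prrx1, a transcription factor of limb mesenchyme, was at 4124 and 4588 in G6Gm, 1394 and 1539.8 in G3, 4856 and 4977 in Dlx3RNAi and 2059 and 2457 in R1, against 4934 and 5913 in uninfected MEF. Fap, fibroblast activation protein, was at 331 and 331 in G6Gm, 81.5 and 82.6 in G3, 333 and 339 in Dlx3RNAi and 124 and 125 in R1, against 283 and 311 in uninfected MEF. Pdgfra, in contrast, was at most 186 in any line, against 2094 and 2139 in uninfected MEF. The sum of 5 pluripotency markers, of 9 listed, was 11765 to 12404 in G6Gm, 15657 to 17311 in G3, 9993 to 10706 in Dlx3RNAi and 17487 to 17897 in R1, against 675 to 683 in uninfected MEF. Dlx3RNAi, highest in the fibroblast sum, was the lowest line here, and R1 exceeded G3 in both sums. The epithelial sum, over 6 markers, was highest in G3 (11607 to 12293). Cartilage markers, 6 with a value, summed to 795 to 1044 in the lines, against 3524 to 3754 in uninfected MEF. The 4 parietal endoderm markers with a value summed to 14520.3 to 15636 in G3, the lowest line, against 39593 to 40605 in uninfected MEF. The part of these markers and of the feeder fibroblasts in these values was not tested.

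Further genes of the same pathways came from lists chosen by function, to be read against 29.1 percent of all genes lower and 28.7 percent higher. Of 16 elastic fibre genes with a value, 13 were lower and 2 higher in the mean of the 4 lines than in uninfected MEF, with a median log2 difference of -1.39. The largest were Efemp1, fibulin-3 (-4.13), the microfibril protein Fbn2, fibrillin-2 (-3.87), the crosslinking enzyme Loxl1 (-2.45) and the microfibril-associated Mfap2 (-2.28). Of 7 small leucine-rich proteoglycans beside Aspn, 6 were lower, led by Prelp (-3.44), lumican Lum (-3.20), fibromodulin Fmod (-2.70) and Ogn (-2.17). Of 12 other matricellular genes, 7 were lower and 1 higher, with Smoc2, of the SPARC family, at -4.33, and Tgfbi (-2.24), Ccn4 (-2.11) and Ccn5 (-2.04) next.

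Among 11 receptors of these proteins, 3 were lower and 3 higher, close to the shares over all genes. The integrin subunit Itga8 was at -3.06 and Itgb5 at -1.91, while Itga5, the alpha subunit of the main fibronectin receptor, was at 1.48 and the thrombospondin receptor Cd36 at 1.05. In the list around Ptn and Mgp, midkine Mdk, the other member of the Ptn family, was higher in the lines (2.06) where Ptn was lower. Ggcx, the carboxylase that modifies Mgp, was lower (-2.62), as was the Gla protein Gas6 (-0.73), and Bmp4 was higher (1.70). Between lines, where 11.8 percent of all genes were higher, Dlx3RNAi was higher than G3 in 13 of 16 elastic fibre genes, led by Mfap4 (2.83) and Loxl1 (2.29), and in 7 of 7 proteoglycans, led by Ogn (2.50). In the list around Ptn and Mgp it was higher in 2 and lower in 1 of 6. The summed level of that list was above uninfected MEF in each line and lowest, among the lines, in R1.

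Line B6 can be described only by its own 3 arrays. Sparc was at 5429, 4562 and 5225, Fn1 at 2868, 2725 and 2480.2, and Postn at 157, 188 and 159. Eln was at 189.7, 141 and 217, Mgp at 203, 257 and 197, and Ptn at 200.5, 241 and 217. Fbln5 (53.7, 56.3 and 62) and Thbs2 (61.1, 59.7 and 63) were dimmer still. Levels cannot be tested between sets, but a probe's rank on its own array can be read in each. Among 9896 probes with a value on every array, the Postn probe ranked at the 19.2 to 23.1 percentile in B6 and at the 98 to 98.7 percentile in R1. Sparc ranked at 84.6 to 87.2 in B6 and 99.7 to 99.8 in R1, Fbln5 at 2.21 to 3.75 in B6 and 55.7 to 56.1 in R1, and Eln at 17.3 to 25.8 in B6 and 10.3 to 14.9 in R1. Postn thus sat among the dim probes in 1 ESC line and near the top in the other. The set and the line cannot be told apart here.

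In fibroblasts infected with SKM and the empty vector, most of these genes were lower than in fibroblasts with the vector alone, and elastin most of all. SKM+EV had 6 of 9 genes lower and none higher than MEF1 EV, where 19.6 percent of 10011 genes were called and 9.63 percent were lower. The median log2 difference was -0.83 over the 9 genes and -0.02 over all genes. Eln was at 2735 and 3883 in SKM+EV, against 9999.8 and 15023 in MEF1 EV (log2 difference -1.90, SE 0.30, adjusted p = 1.44e-05), the largest difference of the 9. Dpt was at 4883 and 4563 in SKM+EV, against 9849 and 8547 in MEF1 EV (log2 difference -0.95, SE 0.22, adjusted p = 0.00197). Fbln5 was at 10228 and 9561 in SKM+EV, against 22215 and 16059 in MEF1 EV (log2 difference -0.93, SE 0.19, adjusted p = 0.000545). None of these 3 pairs of groups overlapped. Here and below, the share of all genes whose groups do not overlap was not counted.

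Postn (log2 difference -0.88, SE 0.24, adjusted p = 0.0078), Aspn (log2 difference -0.83, SE 0.21, adjusted p = 0.00517) and Mgp (log2 difference -0.67, SE 0.19, adjusted p = 0.0132) fell less, and their calls were lost without MEF1 EV replicate 1 or SKM+EV replicate 2, with adjusted p up to 0.108, 0.0944 and 0.184. The count was then 3. Thbs2 (-0.22, adjusted p = 0.631), Sparc (0.13, adjusted p = 0.835) and Fn1 (-0.55, adjusted p = 0.249) did not pass. Averaged over all 10 SKM groups, 7 genes were lower than in MEF1 EV, with 20.5 percent of all genes lower. The largest was Dpt (-2.41, SE 0.16, adjusted p = 9.38e-13), and Thbs2 joined the others at -0.64 (SE 0.19, adjusted p = 0.00626), a call lost without MEF1 EV replicate 1 and with the mean of both probes. Fn1 (0.23) and Sparc (-0.07) were not called. Postn was also lost without MEF1 EV replicate 1 (adjusted p = 0.0965).

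Epithelial markers stood far apart in this comparison: the sum over 6 of 9 listed was 84558 to 87837 in SKM+EV, against 1971 to 2324 in MEF1 EV. The fibroblast marker sums overlapped, at 90869.8 to 99129.7 in SKM+EV and 90036 to 106459 in MEF1 EV over 8 markers. The parietal endoderm sum, over 6 of 7 markers listed, among them basement membrane collagens and laminins, was lower. It was 52485 to 56594 in SKM+EV, against 103138 to 113678 in MEF1 EV, with 2 markers called lower. This sum was 74138.5 to 79822 in GATA4+SKM and 49704 to 51847 in GATA6+SKM. The part of these markers in the matrix values was not tested. Of 15 further elastic fibre genes 6 were lower and 0 higher, led by Mfap2 (-1.40), Fbn2 (-1.32), Mfap4 (-1.19) and Fbn1, fibrillin-1 (-1.005). Of 11 matricellular genes 4 were lower, with Smoc1 (-1.91), Sparcl1 (-1.60), Smoc2 (-1.33) and Thbs3 (-1.03) in front, and 1 higher. The shares over all genes in this comparison were 9.63 percent lower and 9.96 percent higher.

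**Figure D2:**
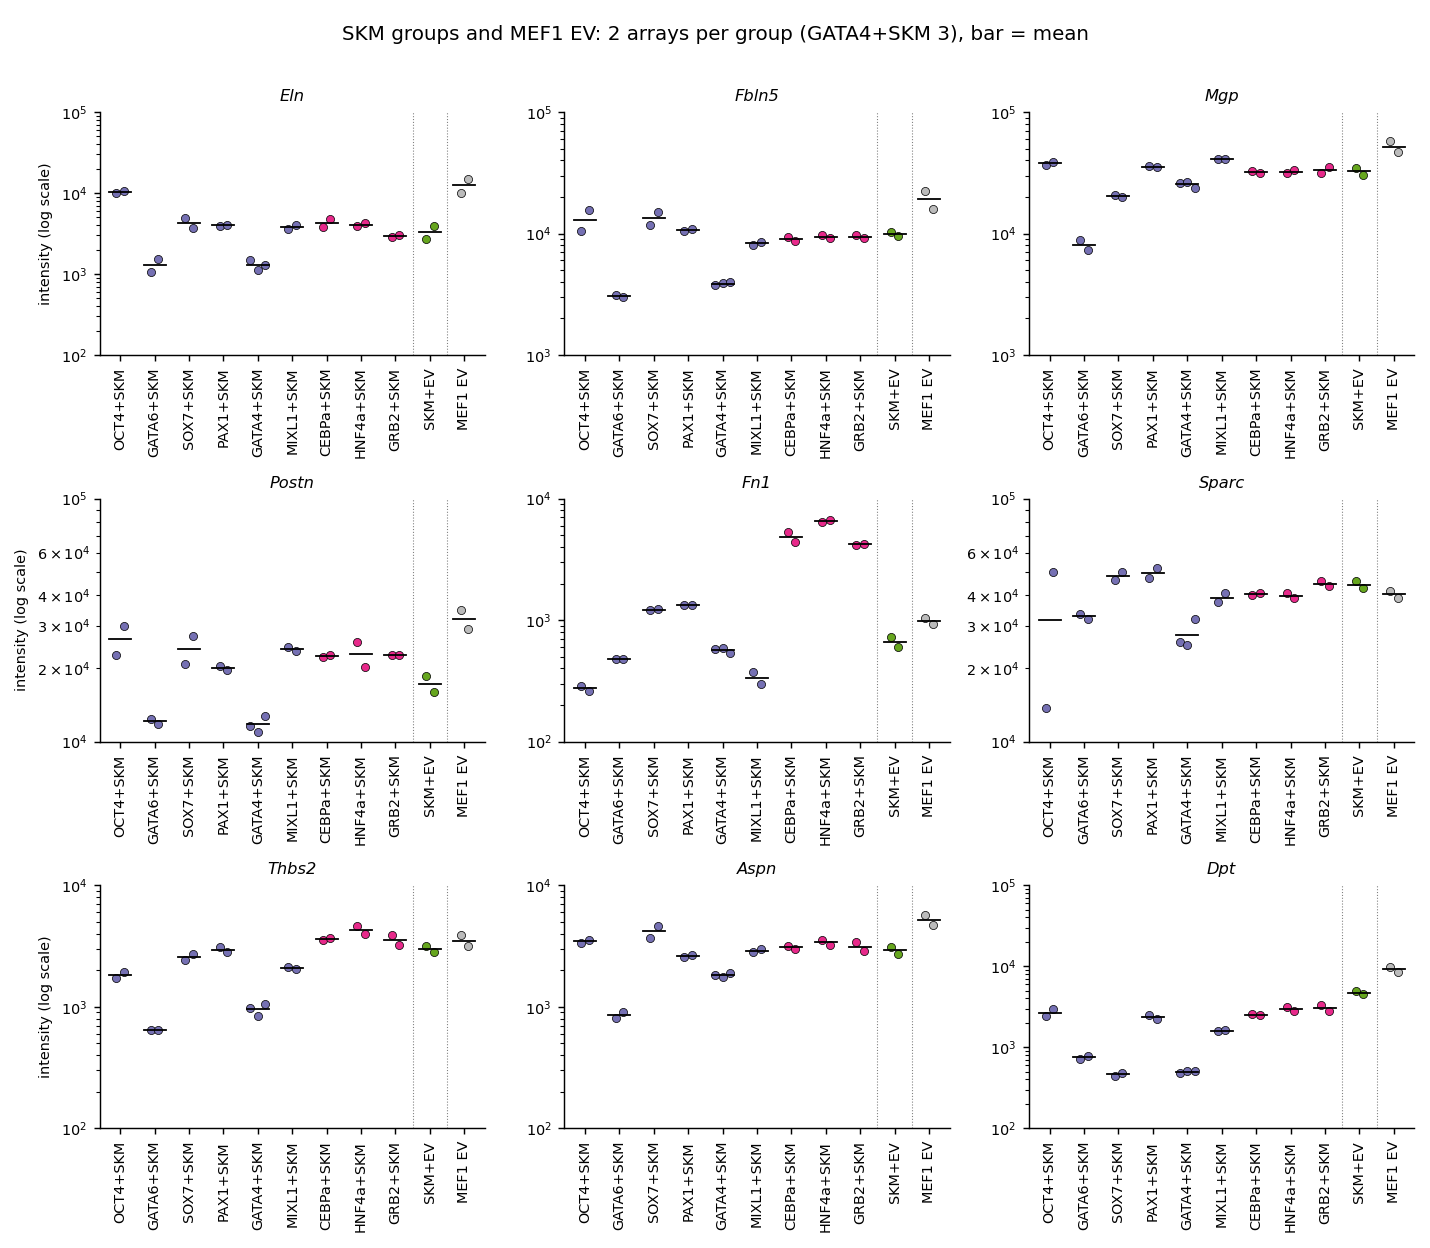
Intensity on each array (points, log scale) and group mean (bar) for the 9 genes with a value, in the 9 groups with a factor added to SKM, then SKM+EV and MEF1 EV. Dpt is lower in each factor group than in SKM+EV, Fn1 stands high in CEBPa+SKM, HNF4a+SKM and GRB2+SKM (pink), and GATA6+SKM and GATA4+SKM are low for most genes.

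The genes differed between the SKM groups: Dpt was lower in each factor group, Fn1 was far higher in 3 groups, Eln was higher with OCT4, and GATA6 and GATA4 went with the broadest falls. By limma's F-test, 8 of 9 differed among the 10 SKM groups. That share is close to the background, where 80.6 percent of all genes differed. Sparc was the exception (adjusted p = 0.0512). The adjusted p was 2.37e-14 for Dpt, 3.82e-13 for Fn1, 4.04e-11 for Fbln5, 1.47e-10 for Mgp and 1.64e-10 for Thbs2. It was 6.97e-09 for Eln, 1.16e-08 for Aspn and 0.000136 for Postn. The comparisons that follow share the 2 SKM+EV arrays, so their signs are not independent of one another.

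Dermatopontin was lower on each array of the 9 factor groups than on either SKM+EV array. The lowest were SOX7+SKM at 445 and 484, GATA4+SKM at 478, 512 and 512 and GATA6+SKM at 725 and 773. SOX7+SKM and GATA4+SKM lay side by side, with 1 array of SOX7+SKM between the lowest and the middle array of GATA4+SKM. Above them came MIXL1+SKM at 1567 and 1612, PAX1+SKM at 2510.3 and 2207 and CEBPa+SKM at 2561 and 2503. OCT4+SKM (2431 and 2935), HNF4a+SKM (3095 and 2790.3) and GRB2+SKM (3295 and 2771) overlapped one another and were the highest of the factor groups by mean, against 4883 and 4563 in SKM+EV. The log2 difference from SKM+EV was -3.26 (SE 0.22, adjusted p = 8.29e-12) for SOX7, -3.16 (SE 0.20, adjusted p = 3.15e-13) for GATA4, -2.61 (SE 0.22, adjusted p = 1.68e-10) for GATA6 and -1.55 (SE 0.22, adjusted p = 3.72e-05) for MIXL1. It was -0.99 (adjusted p = 0.00199) for PAX1, -0.89 (adjusted p = 0.00234) for CEBPa, -0.81 (adjusted p = 0.0131) for OCT4, -0.68 (adjusted p = 0.0145) for HNF4a and -0.64 (adjusted p = 0.0224) for GRB2. The calls for OCT4, HNF4a and GRB2 were lost without SKM+EV replicate 1, and also without OCT4+SKM replicate 1, HNF4a+SKM replicate 2 or GRB2+SKM replicate 2 of their own, and those for OCT4 and GRB2 without SKM+EV replicate 2 (adjusted p up to 0.15, 0.0989 and 0.154).

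With GATA6, a zinc finger factor of endoderm and heart, 6 of 9 genes were lower than in SKM+EV and none higher, where 10.2 percent of all genes were lower. Mgp was at 8851 and 7336 in GATA6+SKM, against 34526 and 30582 in SKM+EV (log2 difference -2.01, SE 0.19, adjusted p = 1.29e-09), and no other SKM group had Mgp as low. Thbs2 was at 638 and 646 in GATA6+SKM, against 3181 and 2804 in SKM+EV (log2 difference -2.16, SE 0.25, adjusted p = 6.27e-08). Aspn was at 809.6 and 909 in GATA6+SKM, against 3086 and 2733 in SKM+EV (log2 difference -1.72, SE 0.21, adjusted p = 2.83e-07). In none of these 3 genes did the 2 groups overlap, and the same holds for Fbln5 (3131 and 2994 in GATA6+SKM, against 10228 and 9561 in SKM+EV, log2 difference -1.68, SE 0.19, adjusted p = 4.13e-08). Eln was at 1072 and 1519.5 in GATA6+SKM, against 2735 and 3883 in SKM+EV (log2 difference -1.33, SE 0.30, adjusted p = 0.00116). Postn (-0.51, adjusted p = 0.131), Sparc (-0.43, adjusted p = 0.351) and Fn1 (-0.44, adjusted p = 0.352) did not pass.

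With GATA4, its relative, 7 of 9 genes were lower and none higher, but 53.9 percent of all genes were called in this comparison of 3 arrays against 2, and 24.9 percent were lower. Thbs2 was at 979, 834 and 1061 in GATA4+SKM, against 3181 and 2804 in SKM+EV (log2 difference -1.62, SE 0.23, adjusted p = 1.21e-06). Fbln5 (-1.34), Eln (-1.31), Aspn (-0.67), Sparc (-0.69) and Postn (-0.55) were also lower on the log2 scale. Mgp was at 25962, 26709 and 23739.5 in GATA4+SKM and was not called (log2 difference -0.35, SE 0.18, adjusted p = 0.0927), nor was Fn1 (-0.20, adjusted p = 0.58). The Sparc and Postn calls were lost when any 1 of the 5 arrays except GATA4+SKM replicate 3 was left out, and Sparc also in a fit of this set alone (adjusted p up to 0.169 and 0.218). Aspn was lost without SKM+EV replicate 1 (adjusted p = 0.0697), and the count of called genes was then 4.

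Fibroblast markers were also lower in both GATA groups. The fibroblast marker sum was 69495 to 72093 in GATA6+SKM and 65650.2 to 86726 in GATA4+SKM, against 90869.8 to 99129.7 in SKM+EV. With GATA6, Pdgfra (-2.74), Fap (-2.07), Snai2 (-1.46) and Pdgfrb (-1.39) led the 5 of 8 markers that were lower. With GATA4, 6 of 8 were lower and 0 higher. These counts and those of the lists below are to be read against unlike shares. Over all genes, 10.2 percent were lower and 11.8 percent higher with GATA6, and 24.9 and 29.0 percent with GATA4. The epithelial sums differed in direction, at 98686 to 112733 in GATA6+SKM and 21373 to 24816 in GATA4+SKM, against 84558 to 87837 in SKM+EV. The part of these cell markers in the matrix values was not tested. Of 15 further elastic fibre genes 13 were lower and 1 higher with GATA6 (median -1.09, against -0.04 over all genes), led by Mfap2 (-2.26), Fbn2 (-1.93) and the lysyl oxidase Lox (-1.76). With GATA4 11 were lower and 0 higher, led by Efemp1 (-2.68) and Fbn2 (-1.97). Among matricellular genes, Smoc2 was at -3.10 and tenascin-C (Tnc) at -2.24 with GATA6, and at -2.21 and -2.92 with GATA4.

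Elastin alone was called higher with OCT4, the factor that completes the classical set. Eln was at 10101 and 10521 in OCT4+SKM, against 2735 and 3883 in SKM+EV (log2 difference 1.65, SE 0.30, adjusted p = 0.000194), and the MEF1 EV arrays at 9999.8 and 15023 enclosed the OCT4+SKM arrays. In the other factor groups Eln ran from 1072 and 1519.5 in GATA6+SKM to 4903 and 3711 in SOX7+SKM, so that OCT4+SKM stood apart from every other SKM group. Fn1 was lower with OCT4 (log2 difference -1.18, SE 0.31, adjusted p = 0.0122), a call lost without SKM+EV replicate 1 or either OCT4+SKM array (adjusted p up to 0.118). With Dpt these made 1 higher and 2 lower genes of 9, where 5.28 percent of all genes were higher and 5.73 percent lower. Fbln5, Mgp, Postn, Sparc, Thbs2 and Aspn were not called, with log2 differences from -0.76 (Sparc) to 0.60 (Postn). At an unadjusted p under 0.05 there were 6 of 9 in limma's fit, a cut at which the share of all genes was not counted. A fit of the set alone called 5 genes. Sparc on the 2 OCT4+SKM arrays was 13691 and 49915, the widest gap between replicates of any of these genes in the SKM groups, and its adjusted p was 0.125. The fibroblast marker sum in OCT4+SKM was 92181 to 99668 and overlapped SKM+EV, and the epithelial sum was 43383 to 43814, against 84558 to 87837 in SKM+EV. Of 15 further elastic fibre genes none was higher, and Mfap5 (-1.52) and Fbln2 (-0.71) were lower.

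Fibronectin was highest in 3 groups whose arrays also stand apart from the others of the set. Fn1 was at 5292 and 4413 in CEBPa+SKM, 6369 and 6629.8 in HNF4a+SKM and 4187 and 4205 in GRB2+SKM, against 724 and 602 in SKM+EV. The log2 difference was 2.81 (SE 0.31, adjusted p = 8.51e-08) for CEBPa, 3.24 (SE 0.31, adjusted p = 5.19e-09) for HNF4a and 2.61 (SE 0.31, adjusted p = 3.14e-07) for GRB2, and 19.9, 22.9 and 23.1 percent of all genes were higher. On these 6 arrays the median intensity over all probes was 412.6 to 416.1, against 400.8 to 408.1 on the other 17 arrays of the set. Within them, CEBPa+SKM against GRB2+SKM called none of the 9 genes (Fn1 0.20, adjusted p = 1; 0.0599 percent of all genes), and HNF4a+SKM against GRB2+SKM also none, with 0 and 0 genes at an unadjusted p under 0.05 (Fn1 0.63, adjusted p = 0.959; 0.639 percent). No array of another group shares that range of medians, so array group and factor cannot be told apart in these 3 groups, for Fn1 or for Dpt and the other genes.

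The other SKM groups had lower Fn1. It was at 1344 and 1334 in PAX1+SKM, 1219.7 and 1225 in SOX7+SKM and 583, 595 and 538 in GATA4+SKM. It was at 481 and 478 in GATA6+SKM, 372 and 299.83 in MIXL1+SKM and 285 and 263 in OCT4+SKM, against 1039.5 and 925 in MEF1 EV. MIXL1+SKM and OCT4+SKM were thus the lowest, without overlap between them. The mean of the 10 SKM groups against MEF1 EV was 0.23 (SE 0.23, adjusted p = 0.442) for Fn1, and without CEBPa+SKM, HNF4a+SKM and GRB2+SKM, a choice made after the values were seen, it was -0.68 (adjusted p = 0.0388). Fn1 was higher in PAX1+SKM than in SKM+EV (log2 difference 0.99, SE 0.31, adjusted p = 0.0308), by a call lost with each of the 4 arrays left out in turn (adjusted p up to 0.152).

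**Figure D3:**
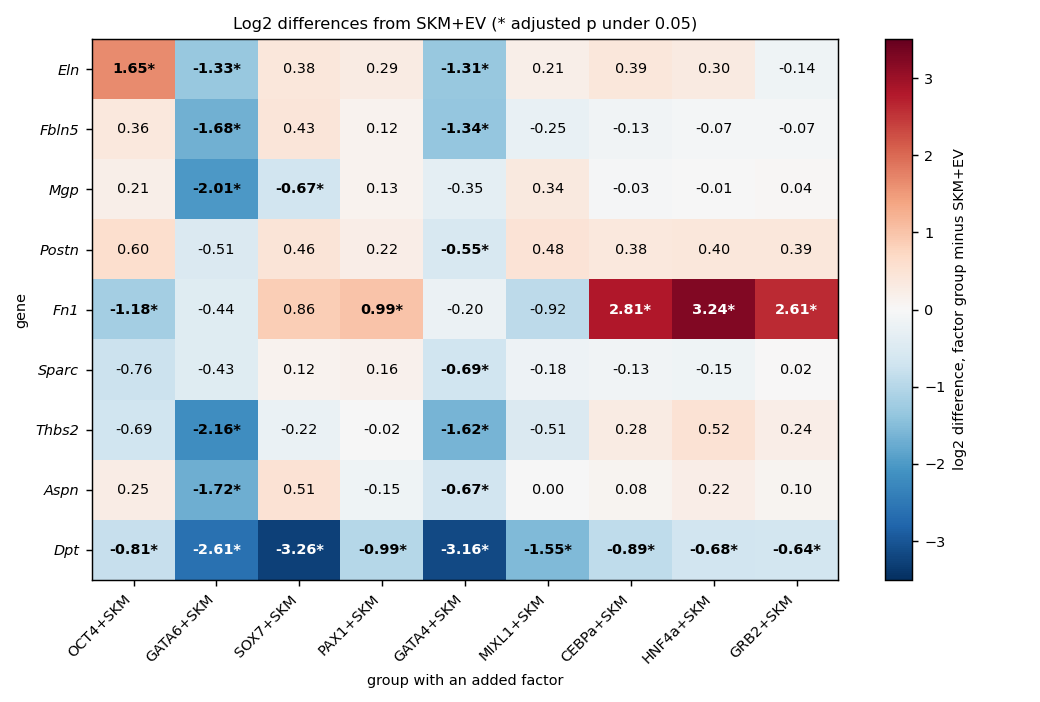
Log2 difference of each factor group from SKM+EV (columns) for the 9 genes (rows), with red for higher and blue for lower and a star for adjusted p under 0.05. The Dpt row is negative throughout, the GATA6 and GATA4 columns hold 6 and 7 called falls, and the Fn1 row holds the largest rise, 3.24 with HNF4a.

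With the remaining factors fewer genes were called. With SOX7, a factor of endothelium and endoderm, Mgp was at 20678 and 20136 in SOX7+SKM, against 34526 and 30582 in SKM+EV (log2 difference -0.67, SE 0.19, adjusted p = 0.0201), beside Dpt, so 2 of 9 genes were lower where 5.75 percent of all genes were. The Mgp call was lost without SKM+EV replicate 1 or either SOX7+SKM array (adjusted p up to 0.191). Eln, Fbln5, Fn1, Postn, Sparc, Thbs2 and Aspn were not called, with log2 differences from -0.22 (Thbs2) to 0.86 (Fn1). At an unadjusted p under 0.05 there were 5 of 9, and fits of the set alone, without and with the replicate number as a block, called 5. The shares of all genes beside these counts were not computed. With PAX1, 2 of 9 were called, Fn1 and Dpt (15.7 percent of all genes), and Eln, Fbln5, Mgp, Postn, Sparc, Thbs2 and Aspn were not called, with log2 differences from -0.15 (Aspn) to 0.29 (Eln). With MIXL1 only Dpt was called, and lower (1.04 percent). Eln, Fbln5, Mgp, Fn1, Postn, Sparc, Thbs2 and Aspn were not called, with log2 differences from -0.92 (Fn1) to 0.48 (Postn). CEBPa, HNF4a and GRB2 each had Fn1 and Dpt called, where 34.6, 42.4 and 40.3 percent of all genes were. Eln, Fbln5, Mgp, Postn, Sparc, Thbs2 and Aspn in those 3 groups had log2 differences from -0.15 (Sparc, HNF4a) to 0.52 (Thbs2, HNF4a), none of them called. A fit of the set alone called 4 with HNF4a and 3 with MIXL1. The epithelial marker sum was 10067 to 11288 in PAX1+SKM, 26079 to 29399 in CEBPa+SKM, 16099 to 16706 in HNF4a+SKM and 18349 to 18541 in GRB2+SKM, all below SKM+EV, while their fibroblast marker sums were at least 94648.

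Across the 11 group means of MEF1 EV and the SKM groups, Fbln5, Eln, Postn and Aspn had the most alike patterns. The correlation of log2 means was 0.94 for Fbln5 with Aspn, 0.92 for Fbln5 with Postn, 0.92 for Eln with Postn and 0.91 for Eln with Fbln5. Fn1 and Sparc were less like these 4: Fn1 was at 0.02 with Eln and 0.29 with Aspn, and Sparc at 0.13 with Eln and 0.46 with Fbln5. Both were closest to Thbs2 (0.66 for Fn1 and 0.67 for Sparc), and with each other they were at 0.52. These are descriptions over groups that share a normalization set and, but for MEF1 EV, the SKM factors. They include CEBPa+SKM, HNF4a+SKM and GRB2+SKM, in which array group and factor cannot be told apart and Fn1 was highest. The genes whose pattern was most like each member's were sought among 3365 genes with a mean above the median and a span of at least 1 log2 unit. For Eln and Fbln5 the first was Angpt2, angiopoietin-2 (0.95 and 0.95), then Gpsm1 (0.92 and 0.94). In the 5 groups of the set with uninfected MEF, Angpt2 correlated with Eln at 0.87 and with Fbln5 at 0.83. Gpsm1 was there at 0.76 and 0.86. Of the members themselves, Fbln5 with Aspn was there at 0.88, Postn with Fbln5 at 0.50 and Postn with Eln at 0.07.

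For Thbs2 they were Lox, the collagen and elastin crosslinking oxidase (0.98), Gpr153 (0.98) and Pdgfrb, a platelet-derived growth factor receptor (0.97). For Aspn the first was Fap (0.96, and 0.97 in the 5 groups with uninfected MEF), before Fbln5 and Rspo2 (0.91). For Fn1 they were Hexa, a lysosomal hexosaminidase (0.98), Mfge8 (0.97) and Pcolce, an enhancer of procollagen processing (0.97). How far these 0.97 to 0.98 rest on CEBPa+SKM, HNF4a+SKM and GRB2+SKM, where Fn1 was far higher, was not tested. For Dpt they were Clec3b (0.94), Maged1 (0.93) and Golga2 (0.90), for Mgp Gpm6b (0.95), Meox2 (0.95) and Trib2 (0.95), and for Postn Epha3 (0.94) before Fbln5 and Eln. Jag1 was next for Eln (0.92) but ran at -0.28 in the other set. Sparc had no gene above 0.85, its value with Jun, followed by Kirrel (0.84) and Arntl (0.83). In the 5 groups with uninfected MEF the values were 0.65 for Lox and 0.52 for Gpr153 with Thbs2, and 0.55 for Rspo2 with Aspn. They were 0.84 for Hexa, 0.63 for Mfge8 and 0.53 for Pcolce with Fn1. With Dpt they were 0.47 for Clec3b and 0.77 for Golga2, with Mgp 0.91 for Trib2 and with Postn 0.32 for Epha3. Sparc was at 0.09 with Jun, -0.41 with Kirrel and 0.89 with Arntl. Pdgfrb, Maged1, Gpm6b and Meox2 had no value there.

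In the arm built on OCT4, KLF4 and MYC, elastin and dermatopontin again were lower than in vector-infected fibroblasts. OKM+EV had 3 genes lower and 2 higher of 10 than MEF2 EV, where 40.8 percent of 11948 genes were called, 21.0 percent lower and 19.8 percent higher. Eln was at 14827, 14774 and 31637 in OKM+EV, against 53913 and 56909 in MEF2 EV (log2 difference -1.54, SE 0.27, adjusted p = 3.2e-05). Dpt was at 865, 933 and 1839 in OKM+EV, against 2943 and 3679 in MEF2 EV (log2 difference -1.50, SE 0.20, adjusted p = 5.41e-07). The 2 groups did not overlap in either gene, and OKM+EV replicate 3 was the highest of its group in both. Fbln5 was at 5393, 5593 and 6306 in OKM+EV, against 6452 and 11481 in MEF2 EV (log2 difference -0.58, SE 0.18, adjusted p = 0.00839), with 1 MEF2 EV array far above the rest, and the call was lost without it, replicate 2, and with the mean of both probes (adjusted p up to 0.556).

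Fn1 was at 1156, 1128 and 4022 in OKM+EV, against 626 and 587 in MEF2 EV (log2 difference 1.47, SE 0.29, adjusted p = 0.00014). Replicate 3 of OKM+EV was far above the other two of its group, and without it the difference was 0.88 (adjusted p = 8.86e-07). Aspn was at 1108, 1166 and 1610.2 in OKM+EV, against 757 and 1042 in MEF2 EV (log2 difference 0.51, SE 0.19, adjusted p = 0.0372), a call lost without OKM+EV replicate 3 or MEF2 EV replicate 1 (adjusted p up to 0.381). Ptn was at 15415, 12702 and 10297 in OKM+EV, against 12992 and 9243 in MEF2 EV, and did not pass (0.20, adjusted p = 0.418). Mgp (-0.38, adjusted p = 0.0827), Postn (-0.13, adjusted p = 0.683), Sparc (-0.26, adjusted p = 0.497) and Thbs2 (0.14, adjusted p = 0.66) did not pass either. A fit of these 5 arrays alone called none of the 10 genes, with adjusted p of 0.0576 for Eln and 0.0761 for Dpt. With the replicate number as a block in that fit, 4 were called, Eln, Fbln5, Fn1 and Dpt.

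Macrophage markers separated these groups too. The sum over 5 markers was 799.6 to 3694 in OKM+EV, against 53894 to 65893 in MEF2 EV, with Csf1r, the receptor for macrophage colony-stimulating factor, at 149 to 184 in OKM+EV and 9843 and 12385 in MEF2 EV. The epithelial sum was 40473 to 75688 in OKM+EV, against 1849.8 to 2048 in MEF2 EV, and the fibroblast sum 75704 to 81023 in OKM+EV, against 69377 to 72489 in MEF2 EV. Their part in the matrix differences was not tested. Of 17 elastic fibre genes 7 were lower and 3 higher, with Efemp1 up (2.14) and Mfap2 (-1.89), Emilin2 (-1.79) and Mfap4 (-1.75) down. Of 13 matricellular genes 5 were higher and 3 lower, with Tnc (2.51) and Thbs1 (1.85) up and Smoc1 (-1.93) and Thbs3 (-1.84) down. The shares over all genes in this comparison were 21.0 percent lower and 19.8 percent higher.

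**Figure D4:**
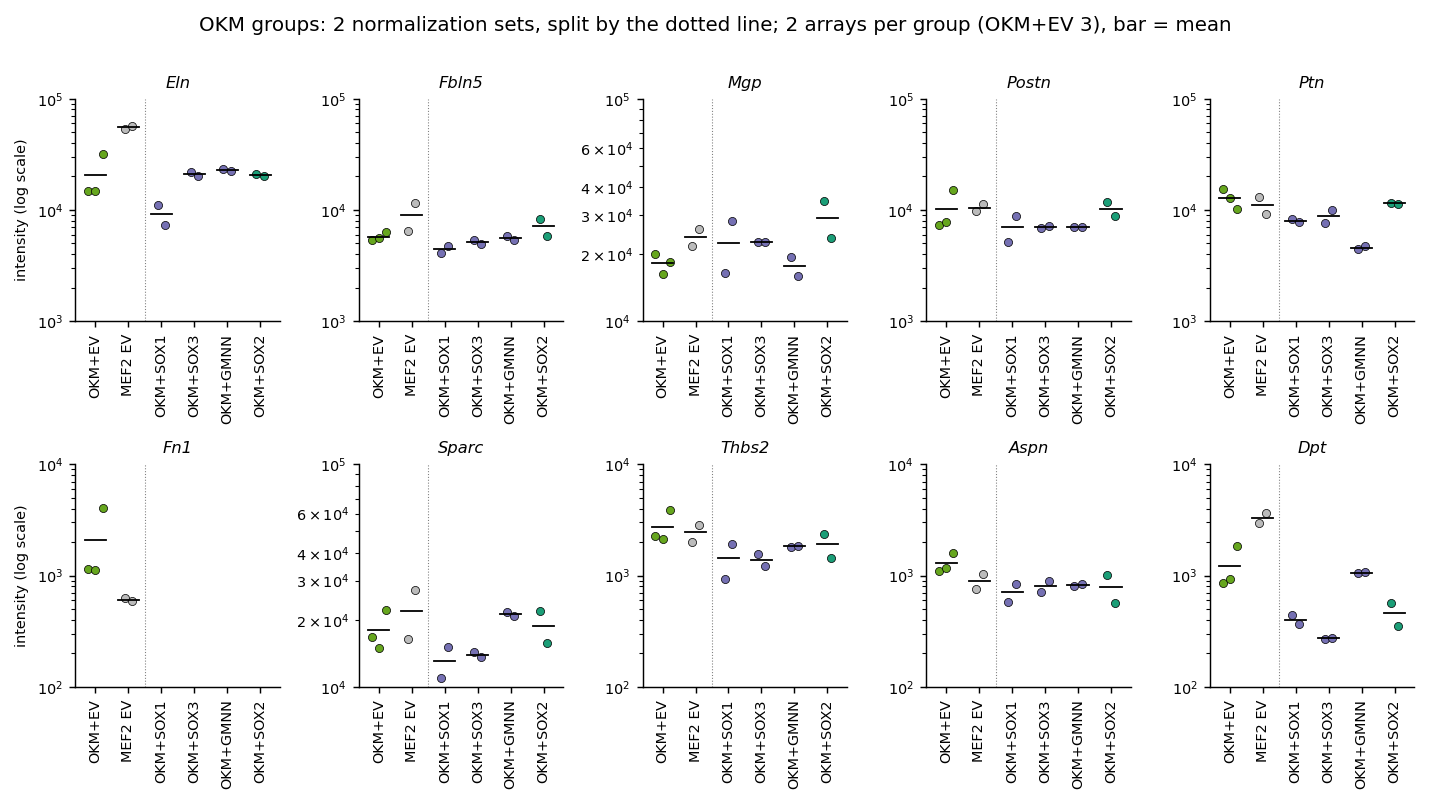
Intensity on each array (points, log scale) and group mean (bar) in OKM+EV and MEF2 EV, left of the dotted line, and in OKM with SOX1, SOX3, GMNN and SOX2, right of it, which were normalized apart and are not comparable across the line. Eln is lower in OKM+SOX1, Ptn lower and Dpt higher in OKM+GMNN than in OKM+SOX2.

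When SOX2 was replaced beside OKM, single genes moved. Among the 4 groups 3 of 9 genes differed by the F-test, Dpt (adjusted p = 6.76e-06), Ptn (0.00132) and Eln (0.00388), where 20.0 percent of all genes differed. Eln was at 10977 and 7334 in OKM+SOX1, 21778 and 20380.2 in OKM+SOX3 and 23472 and 22319.6 in OKM+GMNN, against 21029 and 20035 in OKM+SOX2. Only OKM+SOX1 lay below the others (log2 difference -1.19, SE 0.30, adjusted p = 0.0185). Ptn was at 8273 and 7805 in OKM+SOX1, 7607 and 10081 in OKM+SOX3 and 4416 and 4694 in OKM+GMNN, against 11637 and 11317 in OKM+SOX2. The GMNN difference was the 1 called (log2 difference -1.33, SE 0.21, adjusted p = 0.00043), and it held in each alternative tried. Dpt was at 438 and 366 in OKM+SOX1, 269 and 276 in OKM+SOX3 and 1052 and 1072 in OKM+GMNN, against 571 and 352 in OKM+SOX2. GMNN, geminin, a regulator of DNA replication licensing, thus went with higher Dpt (log2 difference 1.19, SE 0.22, adjusted p = 0.00069).

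With SOX1, 2 genes were lower, Eln and Fbln5 (log2 difference -0.65, SE 0.19, adjusted p = 0.0409), where 2.06 percent of all genes were lower. Both calls were lost without OKM+SOX1 replicate 2 or OKM+SOX2 replicate 1, Fbln5 also without OKM+SOX1 replicate 1, and both in a fit of the set alone (adjusted p up to 0.223 and 0.584). Mgp, Ptn, Postn, Sparc, Thbs2, Aspn and Dpt were not called, with log2 differences from -0.59 (Postn) to -0.12 (Aspn). With GMNN, Ptn and Mgp were lower and Dpt higher (7.22 percent of all genes called), and Mgp (log2 difference -0.70, SE 0.19, adjusted p = 0.0223) was lost without OKM+SOX2 replicate 1 or OKM+GMNN replicate 2. Mgp and Dpt were both lost in a fit of the set alone (adjusted p of 0.321 and 0.0534). Eln, Fbln5, Postn, Sparc, Thbs2 and Aspn were not called, with log2 differences from -0.53 (Postn) to 0.19 (Sparc). With SOX3, limma called no gene, where 6.32 percent of all genes were called. At an unadjusted p under 0.05 it had 3, and Dpt came nearest (-0.66, adjusted p = 0.0667). The share of all genes at that unadjusted p was not counted. Eln, Fbln5, Mgp, Ptn, Postn, Sparc, Thbs2, Aspn and Dpt were not called, with log2 differences from -0.66 (Dpt) to 0.07 (Aspn). Across these groups the macrophage marker sum was 3284 to 3831 in OKM+SOX1, 3968 to 4148 in OKM+SOX3 and 5688 to 6282 in OKM+GMNN, against 418 to 945 in OKM+SOX2, and the epithelial sum was 105604 to 112231 in OKM+GMNN, against 39055 to 44601 in OKM+SOX2. Their part was not tested.

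The second probes of Thbs2 and Fbln5 did not follow the first everywhere. For Thbs2, both probes were called in the same direction in 6 of 23 planned comparisons, the brighter alone in 3, the dimmer alone in 7 and neither in 7. The dimmer Thbs2 probe was at 1510.3 and 1092 in G6Gm, 254 and 250.4 in G3, 2055 and 1946 in Dlx3RNAi and 524 and 601 in R1, against 689 and 641 in uninfected MEF. On this probe the fall in R1 seen on the brighter probe (-2.09, adjusted p = 3.69e-08) was -0.23 (adjusted p = 0.549), while G3 against uninfected MEF was -1.29 (adjusted p = 0.000851) and Dlx3RNAi against uninfected MEF 1.54 (adjusted p = 0.000159). The falls with GATA6 (-2.36, adjusted p = 6e-07) and GATA4 (-1.28, adjusted p = 0.000421) were seen on both probes. The dimmer probe alone rose with CEBPa (1.16, adjusted p = 0.00442), HNF4a (1.49, adjusted p = 0.000339) and GRB2 (0.95, adjusted p = 0.0162). In these 3 groups array group and factor cannot be told apart. It alone was also higher in OKM+EV than in MEF2 EV (1.10, adjusted p = 0.00226). It alone was lower with OCT4 (-1.33, adjusted p = 0.00367) and MIXL1 (-1.24, adjusted p = 0.0245), and in G3 against R1 (-1.06, adjusted p = 0.0289). The second Fbln5 probe had values of 152.5 or less on every array with a value, none on the lines and uninfected MEF, and was called opposite to the first with GATA4 (0.67, adjusted p = 0.0028).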

How the data were processed

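The deposited values are linear probe intensity values from one-colour Cy5 arrays, per the labels and the values themselves. How they were background-corrected and normalized is not given in the sources used here. The pattern of missing values alone set the 5 sets. The median departure of an array's sorted values from the set's mean was 0.72 percent in the SKM set. It was 0.018 to 0.057 percent in the other sets, so the SKM arrays are less alike in distribution. Probes were named through the platform's gene symbols, brought to current mouse symbols (15539 of 19426 probes). Group means were fitted over all 49 arrays with limma 3.58.1 in R 4.3.3 on log2(intensity + 32), with empirical Bayes and an intensity trend. Benjamini-Hochberg adjustment ran over all genes with a value on every array of the set, with a threshold of 0.05. The brightest probe stands for a gene. The procedure was also run on simulated data with independent normal noise, without the correlations between arrays given below. Its outcome is not reported here and is no support for the calls. The 10 genes are named in each planned comparison, those not called mostly by the range of their differences, and so are up to 4 called genes with the largest difference from each list described. Genes, lists and tests were chosen with earlier results of these data known. The 29 contrasts include 6 added after seeing the data: the single lines against uninfected MEF, and CEBPa+SKM and HNF4a+SKM against GRB2+SKM. The alternatives were other offsets, no trend, no dim genes, quantile normalization, all probes, single sets, a replicate block and arrays left out. Figures were drawn with matplotlib 3.10.9 in Python 3.11.15.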

Additional observations from a re-analysis of the deposited data

Results flagged for a closer look

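The differences between iPSC lines are listed again. Each was tested with limma as 1 line minus the other and called at an adjusted p under 0.05. The uninfected MEF level, shared by both lines, cancels in such a difference. Between Dlx3RNAi and G3 the log2 difference was 3.04 for Aspn, 2.74 for Dpt, 2.55 for Thbs2, 2.42 for Fbln5, 2.05 for Ptn, 1.85 for Postn, 0.99 for Sparc and 0.77 for Mgp, always higher in Dlx3RNAi. Between G6Gm and G3 it was 2.73 for Aspn, 2.47 for Thbs2, 2.33 for Fbln5, 1.68 for Dpt, 1.49 for Ptn and 1.06 for Postn, always higher in G6Gm. Between Dlx3RNAi and G6Gm, Dpt alone differed, by 1.06. Of all genes, 11.8, 10.7 and 1.02 percent were called higher in these comparisons, in this order. The Sparc and Mgp calls for Dlx3RNAi against G3 and the Dpt call against G6Gm were lost when single arrays were left out. In all of these comparisons 2 arrays stand against 2, and each line is a single line.

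The 10 SKM groups also differed from one another, by the F-test, in 8 genes. They include CEBPa+SKM, HNF4a+SKM and GRB2+SKM, in which array group and factor cannot be told apart. The adjusted p was 2.37e-14 for Dpt, 3.82e-13 for Fn1, 4.04e-11 for Fbln5, 1.47e-10 for Mgp, 1.64e-10 for Thbs2, 6.97e-09 for Eln, 1.16e-08 for Aspn and 0.000136 for Postn, where 80.6 percent of all genes differed.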

How the results depend on the processing

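Over the 23 planned comparisons of 2 sides, 90 results of single genes were called in limma's fit. Of these, 58 were called in the same direction under every alternative checked for them. There were 46 fits that leave out 1 array, and a result was checked only under those that leave out an array of its own groups. There were 9 other alternatives. Among these, the fit without CEBPa+SKM, HNF4a+SKM and GRB2+SKM was checked only for the mean of the SKM groups against MEF1 EV. In 12 of the other 32 the call was lost in a fit that keeps all arrays. None was lost with an offset of 16 or 64, without the intensity trend, with dim genes left out or with quantile normalization, and the mean of all probes lost 3. Of 126 results not called, 32 were called in at least 1 alternative. The only sign change past the threshold was Fn1 in the mean of the SKM groups against MEF1 EV, -0.68 without CEBPa+SKM, HNF4a+SKM and GRB2+SKM, a setting chosen after seeing the data.

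A fit of each set alone, with fewer arrays behind the spread, called 3 genes in place of 1 for Dlx3RNAi against G6Gm, 5 in place of 3 for OCT4, 5 in place of 2 for SOX7, 4 in place of 2 for HNF4a, 3 in place of 1 for MIXL1, 0 in place of 5 for OKM+EV, 0 in place of 2 for SOX1 and 1 in place of 3 for GMNN. Deviations of arrays with the same replicate number correlated at -0.50 to 0.52 in the SKM set (18 of 55 pairs of groups over 0.1), -0.24 to 0.24 in the set with uninfected MEF (3 of 10), -0.13 to 0.08 among the OKM groups with an added factor (0 of 6) and 0.25 between OKM+EV and MEF2 EV, which share 2 numbers. The numbers were not taken as pairs. With the replicate number as a block the counts were again 3, 5, 5, 4 and 3 for the first 5 of these, 4 for OKM+EV (without Aspn), 0 for SOX1, 1 for GMNN and 1 in place of 3 for the F-test over the OKM groups. The shares of all genes called in the fits of a set alone, without and with the block, were not counted.

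Leaving out 1 array gave 7 to 8 called genes for the mean of the 4 lines against uninfected MEF, 3 to 4 (against 5 with all arrays) for G3 against R1, 5 to 7 for Dlx3RNAi against R1, 6 to 7 (against 8) for Dlx3RNAi against G3 and 0 to 1 for Dlx3RNAi against G6Gm. It gave 3 to 6 for SKM+EV, 5 to 7 for the mean of the SKM groups, 1 to 3 for OCT4, 1 to 2 for SOX7, HNF4a and GRB2, 1 (against 2) for PAX1 and 4 to 7 for GATA4. It gave 4 to 5 for OKM+EV, 0 to 3 for SOX1, 0 to 2 for SOX3, 2 to 3 for GMNN, 8 to 9 for the F-test over the SKM groups, 6 to 7 over the lines and 3 to 5 over the OKM groups. The counts for G6Gm against R1 (3) and G3 (6), the iPSC mean against R1 (2), GATA6 (6), CEBPa (2) and MIXL1 (1) stayed. The cause of these changes was not tested, and no background reading was at hand to say how far dim probes stand above background.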
